A study of Mus musculus with 3 samples.

Results

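Prrx1, Prrx2, Meox1, Tcf15, Pdgfra, Osr1, Tcf21 and Twist2 were taken as markers of head mesoderm and its loose mesenchyme. That tissue lies directly under the otic placode. Meox1 and Tcf15 are also genes of somites, and Osr1 of intermediate and lateral mesoderm, so not every member is particular to that tissue. The members were followed here as 8 of the 27962 gene names on the arrays. They were chosen by name, and every probe carrying such a name was taken. All 8 were present, with 16 probes between them. The arrays compared microdissected mouse placodal ectoderm from embryos at the 4 to 8 somite stage. One group was heterozygous for null alleles of both growth factor genes (Fgf3+/-;Fgf10+/-, the double heterozygote) and the other was homozygous for both (Fgf3-/-;Fgf10-/-, the double null). There was no wild-type group, so the double heterozygote, itself carrying a null allele of each gene, served as the control. Each genotype gave 3 pools of 10 placodes, hybridised in pairs to 3 arrays. Cy3 always marked the double heterozygote pool of a pair and Cy5 always the double null pool, so the genotype and the dye cannot be told apart for any single probe.

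The otic placode is a thickened patch of surface ectoderm that later folds into the inner ear. Mesenchyme beside it arises from paraxial head mesoderm and, further ventrally, from neural crest, and it is in contact with the placode when the tissue is dissected. Mesodermal transcription factors are therefore commonly read as signs of tissue carried over with a dissected epithelium. In a pool of tissue, fewer cells of a type and less RNA per cell cannot be told apart.

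No member passed the test in either direction. Of the 16 probes, 12 probes of 7 genes were bright enough to test, which required a signal well above background on all 3 arrays in at least 1 of the genotypes. Of these 12, 0 were called higher and 0 lower in the double null at an adjusted p under 0.05 (limma, Benjamini-Hochberg over all 25495 probes tested). The share called among all probes was 1.48%, with 1.2% called higher and 0.282% called lower. The number called changed with the arrays used. It was 377 with all 3 arrays, 305 without array 1, 227 without array 2 and 87 without array 3. A fit with 1 array fewer also has less power, so these counts do not show which array the calls rest on. At an unadjusted p under 0.05 there were 4 of the 12 member probes, against 20.2% of all probes. Every log2 ratio given here divides the double null signal by the double heterozygote signal, and a value of 0 means equal signal in both.

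**Figure D1:**
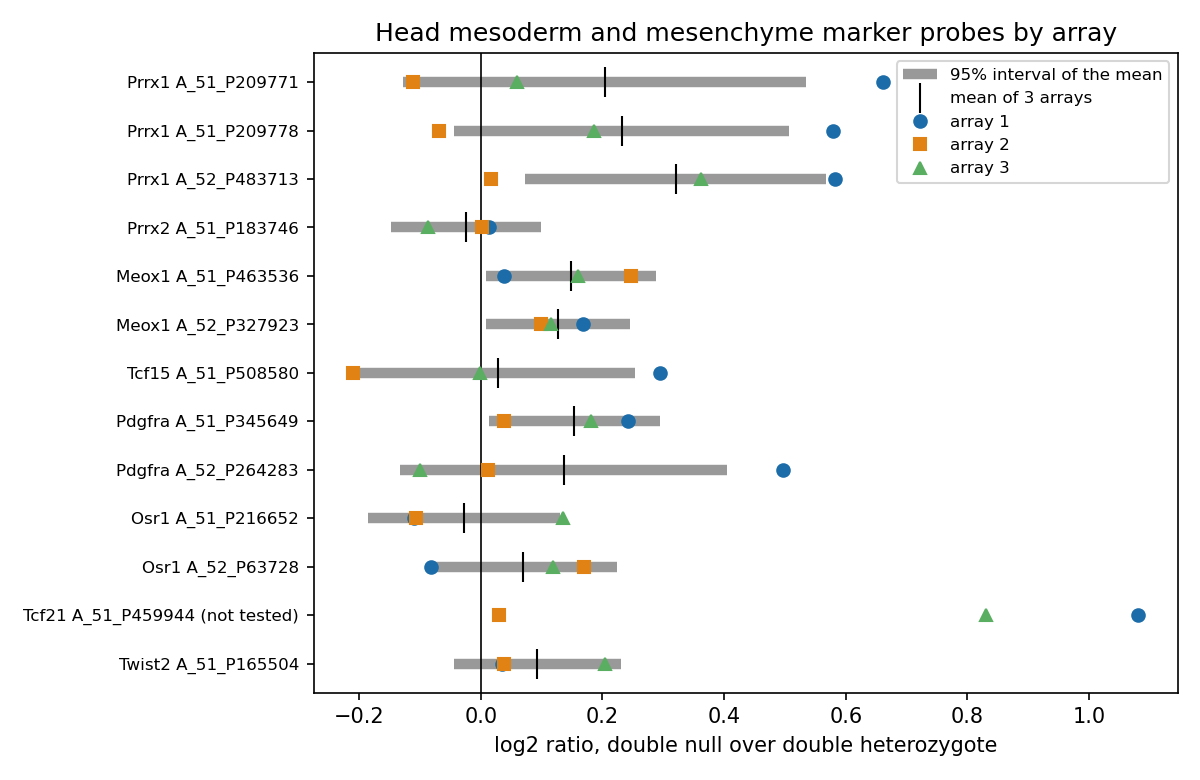
Log2 ratio (horizontal axis) of each tested marker probe and of the untested Tcf21 probe, by array, with the mean of the 3 arrays and its 95% interval for the tested probes. The 3 Prrx1 probes lie between 0.58 and 0.66 on array 1 and between -0.11 and 0.02 on array 2, while the Prrx2 points lie between -0.09 and 0.01.

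The tested probes had a median log2 ratio of 0.13, against 0.01 for all tested probes. By array the medians of the 12 probes were 0.21, 0.01 and 0.13 on arrays 1, 2 and 3. Over all tested probes the medians were 0.01 on each array. Means were above 0 for 10 of the 12 probes and below 0 for 2, and 53.9% of all tested probes were above 0. The Pdgfra coding probe and the Twist2 probe, both above 0, were tested through the double null channel alone, which favours ratios above 0. With a signal required in both channels, 8 of 10 member probes were above 0. Some genes count more than once among the 12 probes. With 1 probe a gene, 6 of 7 member probes were above 0, and the member median was 0.09. The means of the 12 probes ran from -0.03 to 0.32. These counts describe probes that were bright enough to test, not all 16.

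Prrx1 encodes a paired-related homeodomain protein that is widespread in limb and craniofacial mesenchyme, and it was the member covered by most probes, 6 in all. They lie on the minus strand of chromosome 1 of the mouse build mm7, between positions 163208051 and 163244172. Of the probes that gave a signal well above background, 2 were each listed by the files for 3 RefSeq transcripts of Prrx1. Their sequences are shown because the Prrx1 results rest on them, and because the first encodes part of the homeodomain and the second the stretch of protein that follows it. Capitals mark the whole codons of the 1 reading frame without a stop codon, 19 codons in each probe.
Prrx1 homeodomain probe, chr1:163222856-163222915, minus strand: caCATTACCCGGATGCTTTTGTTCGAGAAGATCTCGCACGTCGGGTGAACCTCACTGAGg
Prrx1 adjoining coding probe, chr1:163218848-163218907, minus strand: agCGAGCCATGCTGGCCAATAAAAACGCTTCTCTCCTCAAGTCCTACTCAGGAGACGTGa
The other detected Prrx1 probe, further 3′ at 163209258 to 163209317, is called the distal probe below.

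The homeodomain probe read 7.40, 7.69 and 7.29 in the double heterozygote pools of arrays 1, 2 and 3, as log2 levels, and 7.98, 7.70 and 7.65 in the double null pools. The double null pool of array 1 stood highest, the double heterozygote pool of array 2 was as bright as the other 2 double null pools, and the groups overlapped. Its log2 ratios were 0.58, 0.02 and 0.36, with a mean of 0.32 ± 0.10 (SE, n = 3). That is a fold of 1.25 with a 95% interval of 1.05 to 1.48, with adjusted p = 0.17 (limma).

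The adjoining coding probe had log2 levels of 7.44, 7.87 and 7.56 in the double heterozygote and of 8.02, 7.80 and 7.74 in the double null. Its log2 ratios were 0.58, -0.07 and 0.19, with a mean of 0.23 ± 0.11 (SE, n = 3) and adjusted p = 0.311 (limma). Here too array 1 carried the widest gap, array 2 had a slightly higher double heterozygote pool, and the groups overlapped. The distal probe had log2 ratios of 0.66, -0.11 and 0.06, with a mean of 0.20 ± 0.14 (SE, n = 3) and adjusted p = 0.448. Without array 1 the mean was 0.19 for the homeodomain probe, 0.06 for the adjoining probe and -0.03 for the distal probe.

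The 3 detected Prrx1 probes thus shared the order of the arrays, highest on array 1 and lowest on array 2. Their signs differed on array 2, and they agreed least closely on array 3. On array 1 they spanned 0.08 log2 units around a mean ratio of 0.61. On array 2 they spanned 0.13 around -0.05, and on array 3 they spanned 0.30 around 0.20. The arrays differed from each other by more than the probes did within arrays 1 and 2. These probes read the same RNA on the same arrays and are not replicates of the genotype.

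The other 3 Prrx1 probes were not well above background in either channel on any array. The most 3′ of them, at 163208051 to 163208110, was listed for 2 of the same transcripts as the distal probe, which lies about a kilobase upstream of it and was detected. The remaining pair, at 163214079 to 163214138 and at 163244113 to 163244172, were designed on cDNA clones that the files list with no RefSeq transcript. No ratio of these 3 is a measurement of Prrx1.

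Prrx2, the paralog of Prrx1 with a closely similar homeodomain, had the brightest member probe, at chromosome 2 positions 30888384 to 30888444 of mm7 on the plus strand. Its log2 levels were 14.14, 13.93 and 13.90 in the double heterozygote pools and 14.15, 13.93 and 13.82 in the double null pools. The 2 genotypes gave nearly the same signal on each array, and the pools differed more between arrays than within them. The log2 ratios were 0.01, 0.0017 and -0.09, with a mean of -0.02 ± 0.05 (SE, n = 3) and adjusted p = 0.821 (limma). The 95% interval of the fold ran from 0.903 to 1.07. Between 76.6% and 80.5% of the summed scanner signal of the 16 probes in a pool came from this probe. The members' summed signal was 12279, 11530 and 11713 in the double heterozygote and 13232, 11770 and 11673 in the double null. Without Prrx2 the double null sum was 1.23, 0.989 and 1.13 times the double heterozygote sum on arrays 1, 2 and 3.

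Meox1 encodes a homeodomain protein of somites and paraxial mesoderm and had 2 probes on the minus strand of chromosome 11. They lie at 101986522 to 101986562 and 101987137 to 101987196 of mm7. The listed position of the first probe spans 41 bases, while its sequence has 60. The first had log2 levels of 9.33, 8.80 and 8.97 in the double heterozygote and 9.37, 9.04 and 9.13 in the double null. The second read 8.19, 7.91 and 7.99 against 8.35, 8.01 and 8.11. In both probes each double null pool was above its partner on the array, while the pools of array 1 were the highest of both genotypes and the groups overlapped. The log2 ratios were 0.04, 0.25 and 0.16 for the first and 0.17, 0.10 and 0.12 for the second. Their means were 0.15 ± 0.06 and 0.13 ± 0.05 (SE, n = 3). Adjusted p was 0.227 and 0.221 (limma). The widest gap of the first probe was on array 2, where the Prrx1 ratios were near 0.

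Of the 12 tested probes 5 had the same sign on all 3 arrays, namely both Meox1 probes, the Prrx1 homeodomain probe, the Twist2 probe and 1 of 2 Pdgfra probes. The Twist2 probe was among these through the double null channel alone. The share among all tested probes was 43.8%. The levels of the 2 genotypes did not overlap for 1 of the 12, the Pdgfra probe described below, against 16.4% of all tested probes.

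**Figure D2:**
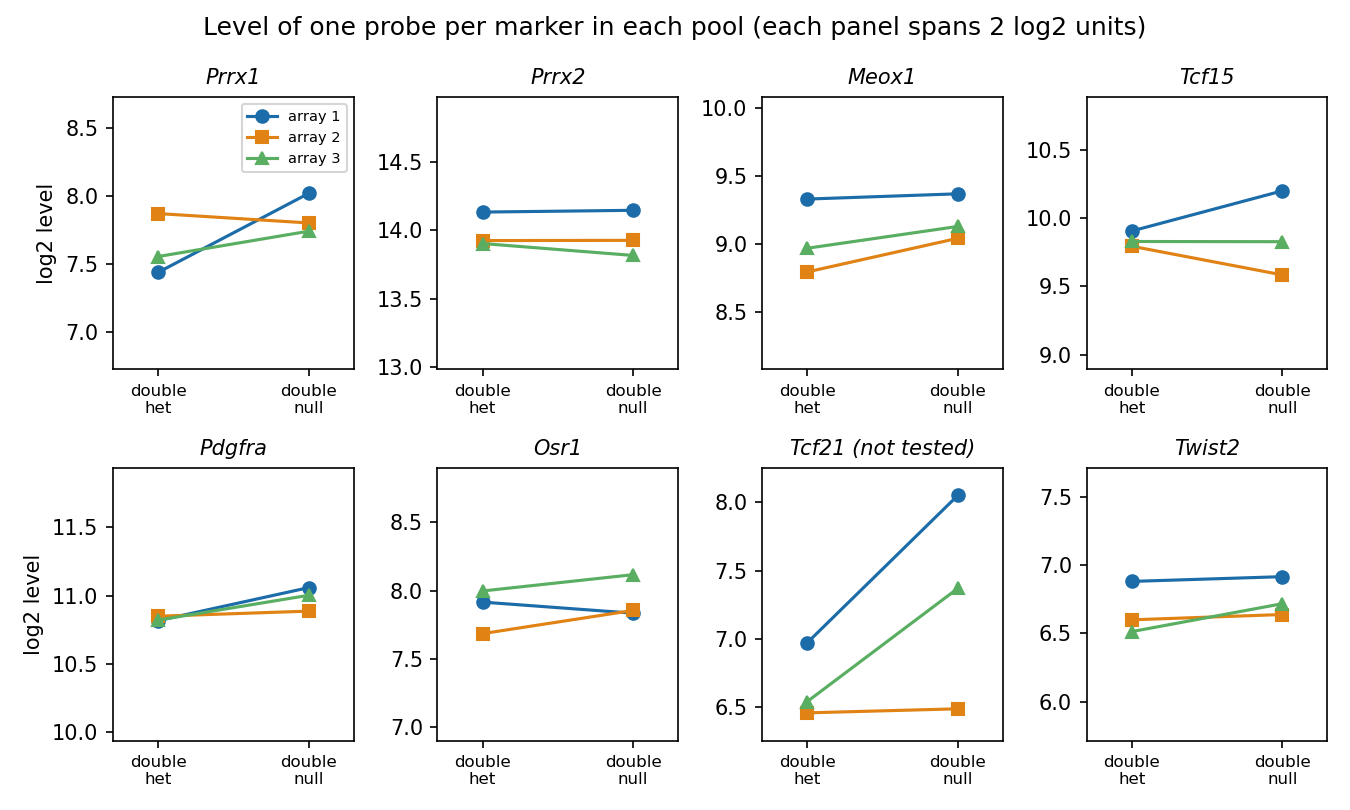
Log2 level after normalization (vertical axis) of the brightest probe of each of the 8 genes in the double heterozygote and double null pools, with lines joining the 2 pools of an array. Each panel spans 2 log2 units, so slopes can be compared, and levels of different genes cannot. The lines of Prrx2 are flat, and the Tcf21 lines of arrays 1 and 3 climb while that of array 2 stays near 6.5.

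Pdgfra encodes the receptor for platelet-derived growth factor A and C ligands and is carried by most embryonic mesenchyme. Its main probe, at chromosome 5 positions 74616116 to 74616175 of mm7 on the plus strand, was printed in 10 spots on each array. The log2 levels were 10.82, 10.85 and 10.82 in the double heterozygote and 11.06, 10.89 and 11.00 in the double null. Every double null pool was above every double heterozygote pool. The log2 ratios were 0.24, 0.04 and 0.18, with a mean of 0.15 ± 0.06 (SE, n = 3). The fold was 1.11 with a 95% interval of 1.01 to 1.23, with adjusted p = 0.217 (limma).

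The repeated spots gave the measurement error within an array. Their SD was 0.04, 0.03 and 0.02 log2 units on arrays 1, 2 and 3 (n = 10 spots each). The lowest spot of array 1 was 0.14, the highest of array 2 was 0.08 and the lowest of array 3 was 0.15. The spots of array 2 therefore lay below those of the other arrays without overlap. These spots share 1 pair of pools on each array and are not replicates of the genotype.

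**Figure D3:**
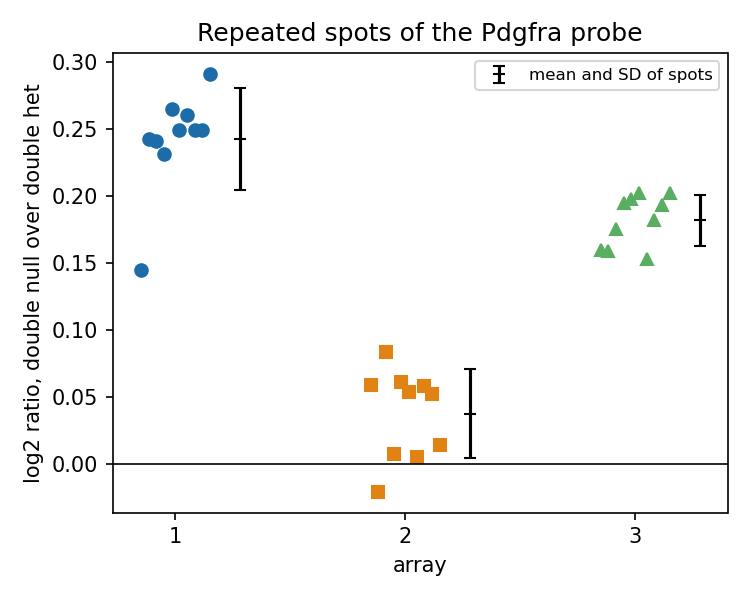
Log2 ratio (vertical axis) of the 10 repeated Pdgfra spots on each of 3 arrays, with the mean and SD of the spots. The spots of array 2 lie between -0.02 and 0.08, and those of arrays 1 and 3 lie between 0.14 and 0.29.

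The second Pdgfra probe, shown because it reads the same transcript in its coding part and was near the detection limit, had 20 codons in its only frame without a stop.
Pdgfra coding probe, chr5:74581841-74581900, plus strand: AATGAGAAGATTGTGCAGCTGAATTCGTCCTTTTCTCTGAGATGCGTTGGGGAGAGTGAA
In the double heterozygote its signal was well above background on array 2 alone, and in the double null on all 3 arrays. Its log2 ratios were 0.50, 0.01 and -0.10, with a mean of 0.14 ± 0.11 (SE, n = 3) and adjusted p = 0.533 (limma). The 95% interval of its fold, 0.912 to 1.32, included the main probe's fold of 1.11. It also included equal signal in both genotypes, so it is too wide to show whether the probes agree. On array 3 their signs differed, with -0.10 for this probe and 0.18 for the main probe.

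Tcf21, a basic helix-loop-helix factor of pharyngeal and other mesenchyme, had a single probe and the widest ratios of the members. The probe encodes part of the carboxy-terminal end of the protein, with 19 whole codons in capitals in its only stop-free frame.
Tcf21 probe, chr10:22574524-22574583, minus strand: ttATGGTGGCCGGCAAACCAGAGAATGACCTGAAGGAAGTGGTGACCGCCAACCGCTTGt
In the double heterozygote it was well above background on 1 array, array 1, and in the double null on arrays 1 and 3. The log2 levels were 6.97, 6.46 and 6.54 in the double heterozygote and 8.05, 6.49 and 7.37 in the double null. Double null pools of arrays 1 and 3 were the highest of the 6, the pool of array 2 was as dim as the dimmer double heterozygote pools, and the groups overlapped. The log2 ratios were 1.08, 0.03 and 0.83. Since the probe was not detected on all 3 arrays in either genotype, it was not tested in the main fit. In the alternative with no filter on dim probes its mean was 0.65 ± 0.17 (SE, n = 3), with adjusted p = 0.147 (limma).

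Tcf15, also called paraxis, is a basic helix-loop-helix factor needed for epithelial somites. Its probe, at chromosome 2 positions 151889804 to 151889863 of mm7, read 9.91, 9.79 and 9.83 as log2 levels in the double heterozygote and 10.20, 9.58 and 9.83 in the double null. The double null pools held both the highest and the lowest level. The log2 ratios of 0.29, -0.21 and -0.0014 averaged 0.03 ± 0.09 (SE, n = 3), with adjusted p = 0.896 (limma). Without array 1 the mean was -0.11.

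Twist2, a related factor of dermal and craniofacial mesenchyme, was dim. The double heterozygote signal of its probe, on chromosome 1 at 91755751 to 91755809 of mm7, was well above background on array 2 alone. Its log2 levels were 6.88, 6.60 and 6.51 against 6.92, 6.64 and 6.72 in the double null. The log2 ratios of 0.03, 0.04 and 0.20 averaged 0.09 ± 0.06 (SE, n = 3) with adjusted p = 0.404 (limma), and the groups overlapped.

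Osr1 encodes a zinc finger factor of intermediate and lateral mesoderm. Its probes on chromosome 12, at 9605468 to 9605527 and 9605902 to 9605961 of mm7, had log2 ratios of -0.11, -0.11 and 0.13 and of -0.08, 0.17 and 0.12. The means were -0.03 ± 0.07 and 0.07 ± 0.06 (SE, n = 3), at adjusted p = 0.847 and 0.577 (limma). On array 2 the probes pointed in opposite directions although they read the same transcript, and on array 1, where Prrx1 and Tcf21 had their widest ratios, both Osr1 values were below 0.

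The order of the arrays was set against other lists, a comparison chosen after the values were seen. The ratio was lowest on array 2 for 6 of the 12 tested member probes and highest on array 1 for 8, against 31.4% and 33.9% of all tested probes. Both counts hold all 3 detected Prrx1 probes, and the second also holds both Pdgfra probes, so some genes count more than once. Among other genes of head and paraxial mesoderm it was lowest on array 2 for 7 of 11 probes, and the tested probes of Foxc1, Snai1, Alx4 and Meox2 were lowest on array 3. In the other lists it was lowest on array 2 for 5 of 6 probes of blood and endothelium, 4 of 10 of matrix, 2 of 5 of endoderm, 1 of 7 of PDGF signalling, 1 of 13 of ectoderm, 1 of 6 of hindbrain, 0 of 8 of neural crest and 0 of 5 of heart and muscle. A ratio highest on array 1 was not particular to the members. It was found for 7 of 11 probes of other head and paraxial mesoderm, 6 of 10 of matrix and 3 of 6 of blood and endothelium. Fewer probes had it in endoderm (2 of 5), neural crest (2 of 8), PDGF signalling (1 of 7) and ectoderm (1 of 13). For hindbrain it was 0 of 6, and for heart and muscle 0 of 5. Twist1, a mesenchymal regulator, read 0.42, -0.32 and -0.13, and Foxc2, a forkhead factor of the same tissue, 0.49, -0.56 and 0.41, both named after their values were seen.

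The list of 17 other head and paraxial mesoderm genes had 15 on the arrays and 11 bright enough to test, with 0 higher and 0 lower. Its median was -0.04, and 4 of 11 probes were above 0. The genes of highest intensity in it were Tbx1, a T-box factor of the pharyngeal region, and Foxc1, a forkhead factor. Tbx1 had log2 ratios of -0.16, -0.23 and -0.15, and Foxc1 of -0.13, -0.12 and -0.25, with limma adjusted p = 0.135 and 0.168. The values of both were below 0 on all 3 arrays, while neither passed the test.

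Among the genes of PDGF signalling, 0 of 7 tested probes of 4 genes passed in either direction. Pdgfa, a ligand made by epithelia that acts on the Pdgfra receptor, had 2 probes that agreed closely, with log2 ratios of -0.33, -0.11 and -0.02 and of -0.35, -0.11 and -0.01. Their means were -0.16 ± 0.07 each (SE, n = 3), at adjusted p = 0.276 and 0.287 (limma). The ligand probes were lowest on array 1, where the main Pdgfra probe was highest. Pdgfrb, the other receptor, read 0.33, -0.28 and 0.06, with a mean of 0.04 and adjusted p = 0.877.

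In the list of mesenchymal matrix and cytoskeleton genes 1 of 10 tested probes rose and 1 fell. Fbn1, which encodes the microfibril protein fibrillin-1, rose by 0.55 ± 0.08 on the log2 scale (SE, n = 3, adjusted p = 0.0249, limma), and its second probe had 0.23 with adjusted p = 0.103. Lum, which encodes the matrix proteoglycan lumican, fell by 0.50 ± 0.08 (adjusted p = 0.0407). The array medians of this list were 0.10, 0.10 and -0.06. Neither call held without array 3 (limma adjusted p = 0.151 and 0.188), and that of Lum did not hold without array 2 (0.11). The log2 ratios moved less than the adjusted p. Without array 3 they were 0.56 for Fbn1 and -0.48 for Lum, and without array 2 that of Lum was -0.41.

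**Figure D4:**
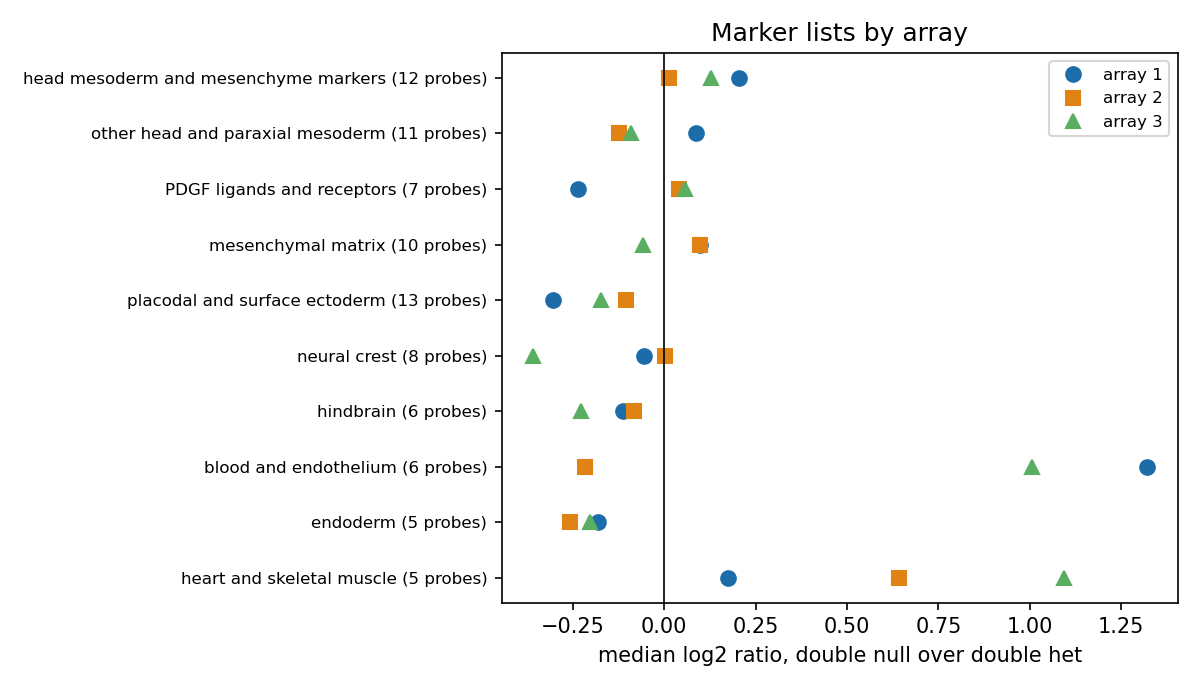
Median log2 ratio (horizontal axis) of the tested probes of each marker list on arrays 1, 2 and 3. The head mesoderm and mesenchyme markers lie between 0.01 and 0.21, and the blood and endothelium list spans from -0.22 on array 2 to 1.32 on array 1.

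Markers of the labelled tissue were present in every pool. E-cadherin (Cdh1), Tacstd1 (the epithelial adhesion gene now named Epcam), the keratin genes Krt8 and Krt18, and the placode regulator Eya1 were well above background in both genotypes on all 3 arrays, while the Pax2 probe was not well above background in any pool. Of 13 tested probes of this ectoderm list all 13 were below 0, with medians of -0.30, -0.11 and -0.17 on arrays 1, 2 and 3. The 13 probes were of 9 genes. Among them the means of Krt18 and of the dimmer Eya1 probe were near 0, at -0.04 and -0.0020. Besides epithelial genes the list holds placode regulators such as Pax8, Dlx5 and Eya1. Whether the pools held less ectoderm was not tested. Array 1, with the highest member median, had the lowest ectoderm median.

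The 6 tested probes of blood and endothelial markers had medians of 1.32, -0.22 and 1.00 on arrays 1, 2 and 3, with 0 of 6 past the threshold. Of the 6, 5 were lowest on array 2, as the detected Prrx1 probes and the Tcf21 probe were. Both probes of the embryonic globin gene Hbb-bh1 and that of Hba-x were highest on array 3, where Hbb-bh1 read 2.82 and 2.69, and not on array 1. The summed signal of the list ranged from 1036 to 1594 in the double heterozygote and from 838 to 7188 in the double null. Among endothelial genes, named after their values were seen, both Pecam1 probes were not well above background in any pool. Of the 2 probes of Kdr, a receptor for vascular endothelial growth factor, 1 was well above background in all 6 pools, with log2 ratios of 1.16, -0.26 and 0.18. A probe of Cdh5, the cadherin of endothelial junctions, was well above background in 2 double heterozygote and 3 double null pools, with log2 ratios of 1.45, 0.42 and 0.14. Heart and skeletal muscle markers followed another order, with medians of 0.17, 0.64 and 1.09. Of their 5 tested probes 1 rose, that of the muscle determination gene Myod1, by 1.24 ± 0.06 (SE, n = 3, adjusted p = 0.00297, limma). The means of all 5 were above 0, with 0.05 for Actc1. The probe of Myf5, the list's other skeletal muscle determination gene, was not well above background in any pool. The summed signal of these heart and muscle markers ranged from 1296 to 1958 in the double heterozygote and from 1904 to 3726 in the double null. Medians of the neural crest list were -0.06, 0.0033 and -0.36, with 0 of 8 probes called, and those of the hindbrain list were -0.11, -0.08 and -0.23, with 0 of 6 called. Medians of the endoderm list were -0.18, -0.26 and -0.20. In it 1 of 5 tested probes passed, a probe of Sox17 that fell by 0.54 ± 0.06 (SE, n = 3, adjusted p = 0.0155, limma). The other tested Sox17 probe had -0.36 with adjusted p = 0.0556 (limma). Afp, with the only probe of the list above 0, had 0.25 with adjusted p = 0.134. The Sox17 call was lost without array 3 (limma adjusted p = 0.117) and without array 2 (0.068), at log2 ratios of -0.49 and -0.50. From the processed signals of the scanner software limma called 0 probes, of 4414 at an unadjusted p under 0.05, and the calls of Fbn1, Lum, Myod1 and Sox17 were lost, at log2 ratios of 0.62, -0.60, 1.36 and -0.63. With the authors' series table and with the channels fitted separately these 4 calls were lost too. Those of Fbn1 and Lum were also lost with an offset of 16, and those of Fbn1, Lum and Sox17 with a loess span of 0.1. Over 15 alternatives the calls held in 9 for Fbn1, 8 for Lum, 9 for Sox17 and 12 for Myod1. These counts include the 2 forms of median centring described below, where 19468 and 13919 of 25495 probes were called, so a call there says little. Alternatives that changed only the filter, probe rule, prior or marked spots kept nearly the same ratios as the main fit. The counts are therefore not counts of independent checks. The part of any of these tissues in the member ratios was not tested.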

How the data were processed

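The authors read spots with Agilent Feature Extraction 9.5.1.1, per the submitters' processing notes. Each deposited scanner file gives mean spot and median background intensity per channel, a processed intensity and a log10 ratio. Values of the deposited series table are log2 ratios. They equal the scanner's log10 ratio, once converted to log2, within 2.01e-06. Probe positions are on mm7, per the file headers. RNA came from pools of 10 placodes. Of 43379 non-control spots per array, 26452 to 28258 were well above background in Cy3 and 27284 to 29177 in Cy5.

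Signals were corrected with normexp (offset 50) and ratios normalized by loess (span 0.3, controls at weight 0) in limma 3.58.1 under R 4.3.3. Between 143 and 175 marked spots per array were left out, and spots of a probe averaged. Probes above background on all 3 arrays in Cy3, or in Cy5, were tested against 0 (lmFit, eBayes, 0.05). Channel levels are after loess and Aquantile, in log2 units that include the offset. The fit was tested on simulated data.

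Members and lists were chosen with earlier results of these data known. Named are all members, every other list's probes past the threshold, and, from the mesoderm and PDGF lists with none, their 2 brightest tested genes, with stated exceptions. Genes outside this rule are named too, among them Hbb-bh1, Hba-x, Afp, Krt18 and Eya1, as description only. A gene of the ectoderm list that met this rule is not reported here, and the list's counts include it. Alternatives covered background, normalization, filter, probe rule, values, prior, marked spots, channel model and each array left out. Precision is limited by the number of arrays.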

Additional observations from a re-analysis of the deposited data

How the results depend on the processing

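No member probe was called in 13 of 15 alternatives. The exceptions were the 2 forms of median centring, which leave the dependence of the ratio on brightness in place. Median centring moved the median of all tested probes to 0.33, with 7 of 12 member probes called, a member median of 0.27 and 19468 probes called in all. Recentred on the tested probes, an alternative chosen after seeing the data, it called 5 member probes, with a member median of -0.054 and 13919 probes in all (45.3% higher, against 80.9%). Bright and dim members then moved apart: with median centring Prrx2 was at 0.63, the Pdgfra coding probe at -0.23 and Twist2 at -0.20, and recentred these were at 0.30, -0.56 and -0.52. Recentred, the Prrx1 distal and adjoining probes were at -0.070 and -0.039, the second Meox1 probe at -0.068 and the second Osr1 probe at -0.17. Prrx2 was at 0.0143 with both the scanner's processed signals and the authors' series table, and at 0.0053 with a loess span of 0.1.

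All probes called became 198 with an offset of 16 (90.4% higher), 30 with span 0.1, 990 with an intensity trend (63.9% higher) and 185 (93.5% higher) when the channels were fitted separately, with no replicate block. limma called 0 with the processed signals (4414 at unadjusted p under 0.05) and 0 with the series table (4467). With 1 array left out, 87 to 305 were called, 0 members, and the member median was 0.08 to 0.14. Ranges that crossed 0 were -0.025 to 0.36 for the Prrx1 distal probe, -0.043 to 0.0073 for Prrx2, -0.11 to 0.15 for Tcf15, -0.044 to 0.25 for the Pdgfra coding probe and -0.11 to 0.01 for the first Osr1 probe. The cause of these changes was not tested. The dim Twist2 and Pdgfra coding probes and the undetected Prrx1 and Tcf21 pools are limited by signal over background.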
